A study of Mus musculus with 19 samples.

Results

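Mitochondrial ribosomal protein genes are the nuclear genes, named Mrpl for the large subunit and Mrps for the small one, that encode the proteins of the ribosome inside mitochondria. The set was taken by name: every row of the liver count table whose symbol starts with Mrpl or Mrps and a number, and whose counts total 50 or more over the 19 libraries. It holds 77 genes of the 24421 gene symbols in the table, 48 Mrpl and 29 Mrps. No row with such a name fell below the threshold, so there were no genes just outside it. The lowest totals were 4999 counts for Mrps6 and 5074 for Mrps36, the highest was 78736 for Mrpl12, and all 77 passed the filter on low counts and were tested.

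The mitochondrial ribosome makes only the few proteins coded by mitochondrial DNA, all of them subunits of the respiratory chain and the ATP synthase. Its own proteins are made in the cytosol and imported, so cells have to match them to ribosomal RNA that is copied from mitochondrial DNA. Liver is rich in mitochondria, and a fasting liver relies on them to burn fatty acids. Symbols do not always follow the present assignment: the products of Mrps30 and Mrps18a sit in the large subunit, and the product of Mrps36, first listed with the small subunit, was later placed in the 2-oxoglutarate dehydrogenase complex.

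RNA was sequenced from livers of mice kept on a purified normal diet and treated with ASOs (antisense oligonucleotides, which bind a chosen RNA and reduce it) by 2 injections a week for 3 weeks. All mice were fasted overnight. The groups were re-fed PLIN5 ASO and re-fed control ASO, each with 4 h of food before the liver was taken and 5 libraries, then fasted PLIN5 ASO with 5 libraries and fasted control ASO with 4. PLIN5 ASO targets Plin5, the gene of the lipid droplet protein perilipin 5, which the study examined for its part in autophagy during fasting and in inflammation. Strain, age and sex are not given in the labels used here, the labels restrict the treatment to no cell type, and they name 1 oligonucleotide against Plin5, so that effects of lower Plin5 and other effects of that oligonucleotide cannot be told apart. Each library was treated as 1 mouse. The labels do not state this, and the p-values measure only the spread between these libraries.

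Total counts per library were 24942147 to 66862784 for the re-fed livers with PLIN5 ASO, 25767006 to 30806915 for those with control ASO, 28705975 to 31816723 for the fasted livers with PLIN5 ASO and 28210530 to 33949977 for those with control ASO. Plin5 was lower with PLIN5 ASO in both feeding states, by a log2 fold change of -2.28 in re-fed liver (adjusted p = 0.00119) and -2.01 in fasted liver (adjusted p = 0.00257, edgeR's quasi-likelihood test). Hepatocyte markers summed to 104000 CPM (the count relative to the scaled library total) or more in every library, with all 12 present. Several facts of the libraries touch the results. The clock genes Arntl and Dbp set re-fed control ASO 3 and 5 and fasted PLIN5 ASO 3 and 5 apart, called clock-shifted here: Arntl ranged from 14.6 to 45.0 CPM in these 4, and the other 15 libraries held 0.566 to 4.87 CPM. Among 36 pairs of libraries within a group, the closest was fasted control ASO 3 and 4 (chi-square per degree of freedom 3.28, against 19.5 for the next). Their distance exceeded sampling noise, but this measure cannot tell 2 mice from 2 preparations of 1 liver. Fasted control ASO 3 and 4 were counted as 2 samples. Counted as 1 sample, they left 7 of the 10 calls described below for re-feeding under control ASO, without Mrpl15, Mrpl2 and Mrps16. Libraries differed in the balance of long and short transcripts. The 13 Kupffer cell and macrophage markers tested summed to 127 to 291 CPM in re-fed livers with PLIN5 ASO, 161 to 261 in those with control ASO, 181 to 482 in fasted PLIN5 ASO and 170 to 194 in fasted control ASO, with none at 0. In bulk tissue, fewer cells of a type and less RNA per cell cannot be told apart.

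Every member was detected in every library, and none was listed at 0 in the deposited FPKM table (fragments relative to transcript length and library total, the scale on which different genes can be compared). Mean FPKM over the 19 libraries had a median of 31.2 among the members, against 6.4 among all genes of the table with a mean of at least 0.5. The 3 highest were Mrpl52 at 180 FPKM (154 to 243 over libraries), Mrpl12 at 155 FPKM (126 to 196) and Mrps21 at 150 FPKM. Mrpl52 and Mrpl12 belong to the large subunit, where the product of Mrpl12 forms the stalk that brings in translation factors; it has also been found bound to the mitochondrial RNA polymerase. The 3 lowest were Mrpl19 at 2.48 FPKM, Mrps25 at 2.79 and Mrpl35 at 6.86, a span of 72.5-fold from the highest to the lowest mean. The longest annotated transcripts of these 3 are 5000, 6073 and 3721 nt, against 463 nt for Mrpl52 and a median of 1288 nt over the members, and a long annotated transcript by itself lowers FPKM.

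The promoters of 6 members, chosen by their change in these data, are shown. Mrpl12, Mrpl17, Mrpl14 and Mrpl9 were lower on re-feeding under control ASO in every alternative analysis. Mrpl16 and Mrps36 had the smallest p-values on re-feeding under PLIN5 ASO. Each line gives the 200 bases before the RefSeq transcription start, 5′ to 3′ on the gene's strand, and capitals mark matches to CGCNTGCG, the core of the site of nuclear respiratory factor 1 (NRF1), a transcription factor known for genes of mitochondrial function. The windows, in build GRCm38.p6, are chr11:120484437-120484636 (plus strand) for Mrpl12, chr7:105811088-105811287 (minus) for Mrpl17, chr17:45686149-45686348 (plus) for Mrpl14, chr3:94443136-94443335 (plus) for Mrpl9, chr19:11770215-11770414 (plus) for Mrpl16 and chr13:100744660-100744859 (minus) for Mrps36.
Mrpl12: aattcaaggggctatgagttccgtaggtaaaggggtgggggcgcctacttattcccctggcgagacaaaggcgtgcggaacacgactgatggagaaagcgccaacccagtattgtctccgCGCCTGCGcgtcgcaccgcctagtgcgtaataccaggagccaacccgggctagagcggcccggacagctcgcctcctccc
Mrpl17: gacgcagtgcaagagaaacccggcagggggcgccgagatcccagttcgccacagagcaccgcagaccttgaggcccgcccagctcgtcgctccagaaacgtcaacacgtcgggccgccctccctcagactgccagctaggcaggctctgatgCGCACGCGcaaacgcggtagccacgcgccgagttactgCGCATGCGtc
Mrpl14: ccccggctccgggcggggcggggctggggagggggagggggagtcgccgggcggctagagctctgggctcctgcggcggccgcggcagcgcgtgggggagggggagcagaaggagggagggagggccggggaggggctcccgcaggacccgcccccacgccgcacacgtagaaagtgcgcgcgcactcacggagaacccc
Mrpl9: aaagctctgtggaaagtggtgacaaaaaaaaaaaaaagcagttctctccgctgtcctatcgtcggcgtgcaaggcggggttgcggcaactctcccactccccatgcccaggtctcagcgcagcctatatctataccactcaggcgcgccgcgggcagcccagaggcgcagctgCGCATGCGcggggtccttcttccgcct
Mrpl16: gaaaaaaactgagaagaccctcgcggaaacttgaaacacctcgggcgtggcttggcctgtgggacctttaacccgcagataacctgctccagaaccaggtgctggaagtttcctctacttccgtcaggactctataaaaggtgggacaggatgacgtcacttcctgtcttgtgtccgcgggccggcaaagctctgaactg
Mrps36: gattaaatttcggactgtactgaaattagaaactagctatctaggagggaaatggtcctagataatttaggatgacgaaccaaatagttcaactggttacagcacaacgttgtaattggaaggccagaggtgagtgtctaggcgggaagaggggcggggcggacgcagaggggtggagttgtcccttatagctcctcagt

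Matches were counted on both strands from 250 bases before to 50 after each start, for the 68 members and the 10109 genes tested that RefSeq's table holds, and 9 members had no entry. The NRF1 letters were found at 20 of the 68 members (29.4%) and at 18.7% of all genes tested. Mrpl12 has matches that begin 80 bases before and 42 bases after the start, Mrpl17 has matches 48 and 10 bases before it, Mrpl9 has one 27 bases before it and Mrpl14 one just after it, outside the stretch printed. CCGGAAG, a site of the ETS family to which the GA-binding protein belongs, was found at 25 members (36.8%) and at 19% of all genes. AAGATGGC, the core of the site of YY1, was found at 12 members (17.6%) and at 5.09% of all genes, and the E-box CACGTG, which MYC and other factors bind, at 5 members (7.35%) and at 11.7% of all genes. None of the 6 promoters shown has a YY1 or E-box match in that window, and the ETS match of Mrpl17 lies outside the stretch printed. Promoters of the members had a median GC content of 58%, against 60.3% over all genes tested. A match is a run of letters, and whether the factors bind there was not measured.

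Re-feeding under control ASO lowered a small part of the set. Of the 77 members, 10 were called lower in re-fed liver (adjusted p under 0.05) and 0 higher, or 13.0%, while over all 13293 genes tested 13.2% were called in either direction, 6.82% lower and 6.42% higher. The share called was thus near the background, but all 10 calls had the same sign. The median log2 fold change of the members was -0.13, against 0.03 over all genes, and 66 of 77 had a negative estimate. With the trend of each library with transcript length taken out, as described below, 48 of 77 were negative, the median was -0.05 and the calls were 2 higher and 7 lower. Large subunit genes gave 7 of the calls (of 48) and small subunit genes 3 (of 29), with medians of -0.14 and -0.12.

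Mrpl12, the stalk protein, lies on chromosome 11 at 120484613 to 120489065 (plus strand, GRCm38) with 5 exons in its longest form. It had 104, 111, 111, 128 and 106 CPM in re-fed control ASO livers, against 146, 171, 158 and 154 CPM in fasted control ASO livers. The 2 groups did not overlap (log2 fold change -0.49, SE 0.09, adjusted p = 0.00106, edgeR's quasi-likelihood test).
Mrpl17, another protein of the large subunit, lies on chromosome 7 at 105803206 to 105811099 (minus strand). It had 41.9, 45.4, 43.6, 49.6 and 39.1 CPM in re-fed control ASO livers, against 58.7, 63.3, 62.2 and 60.0 CPM in fasted control ASO livers, again without overlap (log2 fold change -0.47, SE 0.08, adjusted p = 0.00129). Mrpl14 (chromosome 17, 45686322 to 45698495, plus strand) encodes a protein of the face that meets the small subunit, which in human cells is bound by the assembly factor MALSU1. It had 34.8, 41.1, 36.4, 41.5 and 36.7 CPM in re-fed control ASO livers, against 50.2, 51.3, 48.7 and 52.1 CPM in fasted control ASO livers (log2 fold change -0.41, SE 0.10, adjusted p = 0.0137).

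Mrpl9 (chromosome 3, 94443318 to 94451130, plus strand) had 37.4, 39.8, 35.6, 42.4 and 38.4 CPM in re-fed control ASO livers, against 49.2, 50.4, 52.1 and 47.6 CPM in fasted control ASO livers (log2 fold change -0.36, SE 0.07, adjusted p = 0.00233). It was the third of the members by p-value, and its spread within groups was small beside the difference. Mrps26, a small subunit protein found only in mitochondria, had 17.1, 21.7, 22.2, 23.3 and 16.9 CPM in re-fed control ASO livers, against 29.3, 25.2, 26.7 and 25.7 CPM in fasted control ASO livers (log2 fold change -0.40, adjusted p = 0.0187). Mrps9, a protein of the head of the small subunit, had 16.5 to 24.0 CPM in re-fed and 25.7 to 27.9 CPM in fasted control ASO livers (log2 fold change -0.40, adjusted p = 0.0122). Mrps16, a small subunit gene linked to mitochondrial disease in humans, averaged 23.4 ± 1.98 CPM in re-fed and 28.5 ± 1.90 CPM in fasted control ASO livers (SD, n = 5 and 4; log2 fold change -0.28, adjusted p = 0.0337). The other 3 calls, named after their values were seen, were Mrpl43 (-0.28, adjusted p = 0.0189), Mrpl15 (-0.28, adjusted p = 0.0408) and Mrpl2 (-0.27, adjusted p = 0.0458), whose product lies near the catalytic centre. In each of the 10, every re-fed control ASO library lay below every fasted control ASO library. This does not mark out the calls: it held for 19 of all 77 members, and 1 member lay wholly above. The share over all genes was not computed, so whether 19 of 77 is many or few is not known.

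Of the 9 called members with a promoter entry, 7 held the NRF1 letters, 4 the ETS letters, 1 the E-box and 0 the YY1 letters. Of the 4 members called on re-feeding under PLIN5 ASO, described next, 1 held the NRF1 letters, 1 the ETS letters and 0 the others. Some called members whose promoters are not shown differ from the 6 shown. Mrpl2 and Mrps16, lower under control ASO, lacked the NRF1 letters, and Mrpl57, higher under PLIN5 ASO, held them. Over all 68 members with an entry, 20 held the NRF1 letters, 25 the ETS letters, 5 the E-box and 12 the YY1 letters. These are descriptions of genes chosen by their change, and a link between the letters and the change was not tested. The count of calls rested partly on single libraries: it was 6 without fasted control ASO 1 and 6 without fasted control ASO 4, and 7 without the clock-shifted libraries. Mrpl12, Mrpl14, Mrpl17 and Mrpl9 were called under all 32 alternatives, whereas Mrpl2 was called in 8 and Mrpl15 in 12 of the 19 runs that left out 1 library.

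**Figure D1:**
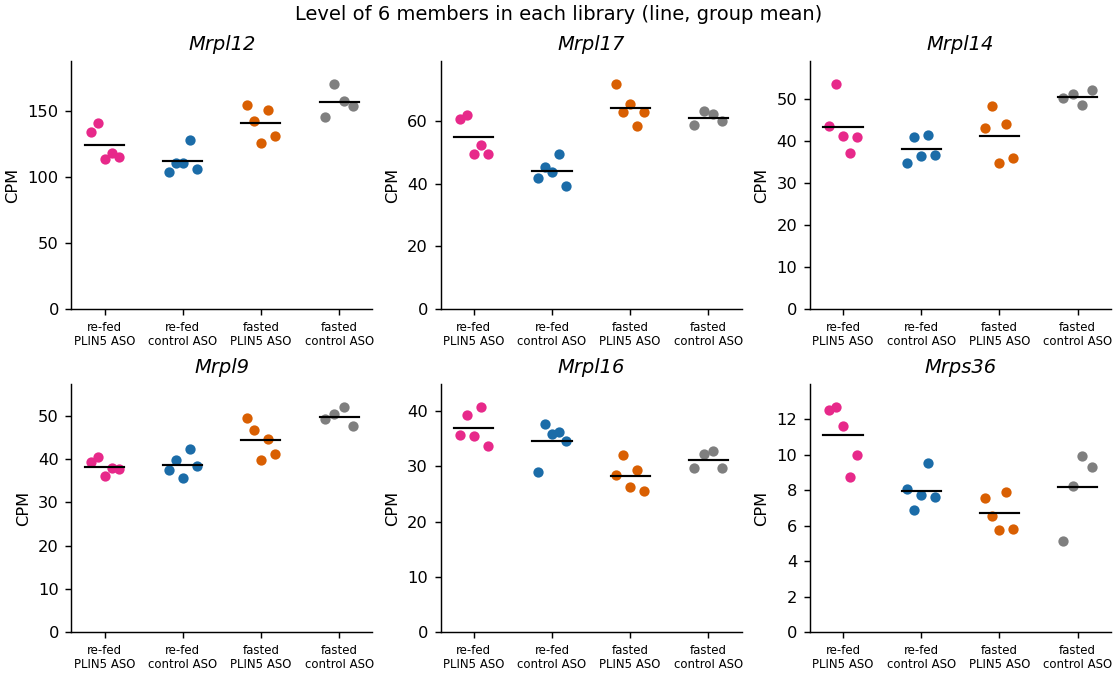
Levels of 6 members in CPM (vertical axes, starting at 0) in each of the 19 libraries, by group; dots are libraries and lines are group means. Mrpl12, Mrpl17, Mrpl14 and Mrpl9 are lower in re-fed than in fasted control ASO libraries without overlap, and Mrpl16 and Mrps36 are higher in re-fed than in fasted PLIN5 ASO libraries without overlap.

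Re-feeding under PLIN5 ASO gave other calls. Of the 77 members 4 were called higher and 0 lower, or 5.19%, against 8.64% of all genes called, 4.5% higher and 4.14% lower. The median log2 fold change was 0.10, against 0.00 over all genes, with 56 of 77 estimates positive. Mrps36 (chromosome 13, 100735955 to 100744659, minus strand), whose product is counted today with the 2-oxoglutarate dehydrogenase complex of the citric acid cycle, had 12.5, 12.7, 11.6, 8.74 and 9.96 CPM in re-fed PLIN5 ASO livers, against 7.55, 6.54, 5.78, 7.90 and 5.79 CPM in fasted PLIN5 ASO livers. The groups did not overlap (log2 fold change 0.72, SE 0.16, adjusted p = 0.00718, edgeR's quasi-likelihood test). Mrps36 has 3 annotated pseudogenes, and the labels do not say how reads that match several copies were counted. Mrpl16 (chromosome 19, 11770391 to 11774960, plus strand), a large subunit protein, had 35.7, 39.3, 35.5, 40.8 and 33.6 CPM in re-fed PLIN5 ASO livers, against 28.4, 32.0, 26.3, 29.3 and 25.6 CPM in fasted PLIN5 ASO livers (log2 fold change 0.38, SE 0.08, adjusted p = 0.00536).

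Mrps14, of the head of the small subunit, averaged 19.9 ± 2.22 CPM in re-fed and 16.3 ± 1.46 CPM in fasted PLIN5 ASO livers (SD, n = 5 each; log2 fold change 0.28, adjusted p = 0.0287), with one re-fed library inside the fasted range. Mrpl57, a large subunit protein found only in mitochondria, averaged 27.5 ± 2.32 and 23.3 ± 1.56 CPM in the same groups (log2 fold change 0.24, adjusted p = 0.0253). Without the clock-shifted libraries, 2 of which are fasted PLIN5 ASO, none of these 4 was called (adjusted p = 0.0558 for Mrpl16, 0.0666 for Mrps36, 0.109 for Mrps14 and 0.163 for Mrpl57) and 3 others, Mrpl9, Mrpl13 and Mrps9, were called lower. Without fasted PLIN5 ASO 5 there were 2 calls, both higher, and without re-fed PLIN5 ASO 2 there were 2 higher and 3 lower. With RLE size factors the split was 4 higher and 1 lower, and with the trend with transcript length taken out it was 4 and 4.

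The re-feeding effects under the 2 ASOs come from different livers, and they can be set side by side. Across the 77 members the 2 sets of log2 fold changes had a Pearson correlation of 0.60 (Spearman's rho 0.63), against 0.38 (0.32) across all 13293 genes; these are correlations across genes, which share libraries and are no replicates. The members kept much of their order, while the sign of the estimate often differed. Of the members, 46 were higher on re-feeding with PLIN5 ASO and lower with control ASO, 20 were lower in both, 10 higher in both and 1 the other way. Over all 13293 genes these counts were 2372, 3834, 4293 and 2794. They count signs of estimates, many of them small, and no member was called in the interaction. Both medians were smaller in size with the trend with transcript length taken out, as described below. Of the 10 members called lower under control ASO, 7 had a negative estimate under PLIN5 ASO, of which Mrpl9 had -0.21 (adjusted p = 0.0525), Mrpl17 -0.23 (adjusted p = 0.079) and Mrpl12 -0.18 (adjusted p = 0.187).

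**Figure D2:**
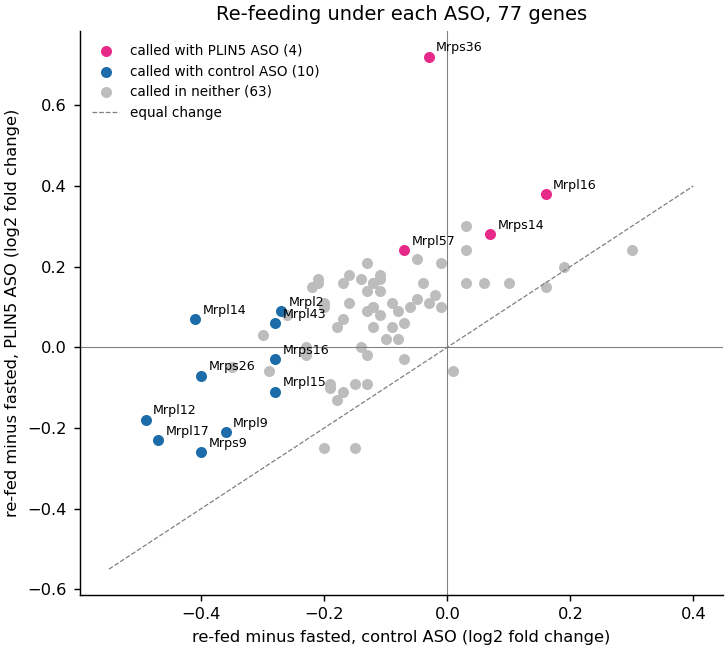
Log2 fold change of each of the 77 members on re-feeding under control ASO (horizontal axis) and under PLIN5 ASO (vertical axis); colours mark members called in either comparison and the dashed line marks equal change. Most points lie above the line, with 46 in the upper left quadrant, and Mrps36 stands apart at 0.72 under PLIN5 ASO.

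PLIN5 ASO against control ASO in re-fed liver gave 0 calls among the members in edgeR's quasi-likelihood test, where 1.38% of all genes were called. At an unadjusted p under 0.05 there were 36 of 77 members, all higher with PLIN5 ASO. Of all 13293 genes there were 2527, of which 1307 were higher and 1220 lower. Of the 744 genes with transcripts under 1000 nt, 265 were higher and 17 lower. DESeq2 called 6 members (7.79%), all higher, and 4.6% of all genes, and limma, on FPKM values, called 0 members. Of the 77 estimates 71 were positive, and the median log2 fold change was 0.17 for the members, 0.17 for each subunit and -0.01 for all genes. With the trend with transcript length taken out, 51 estimates were positive and 26 negative, the median was 0.05, and at an unadjusted p under 0.05 there were 15 members higher and 1 lower. Mrpl17 had the smallest p, with 60.7, 62.0, 49.5, 52.2 and 49.5 CPM in re-fed PLIN5 ASO livers, against 41.9, 45.4, 43.6, 49.6 and 39.1 CPM in re-fed control ASO livers. The ranges overlapped only by 49.5 against 49.6 CPM (log2 fold change 0.32, SE 0.08, adjusted p = 0.0526). Mrpl30 (0.34, adjusted p = 0.0737) and Mrps30 (0.24, adjusted p = 0.0752), both of the large subunit, came next.
Mrps30 had 28.6, 31.4, 33.0, 30.3 and 26.7 CPM in re-fed PLIN5 ASO livers, against 24.6, 24.0, 24.4, 26.9 and 26.6 CPM in re-fed control ASO livers, so that only the lowest PLIN5 ASO library lay within the control range. Mrpl17 passed the threshold without re-fed PLIN5 ASO 3 or 5 or re-fed control ASO 4, and 2 members in all were then called in each of these runs. Without re-fed control ASO 3 there was 1 call.

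In fasted liver, PLIN5 ASO against control ASO also gave 0 calls among the members, where 1.17% of all genes were called. At an unadjusted p under 0.05 there were 7 of 77 members, all lower with PLIN5 ASO. Of all 13293 genes there were 2003, of which 1001 were lower and 1002 higher. DESeq2 and limma called 0 members. The median log2 fold change was -0.04, against 0.01 over all genes, and it was 0.03 without the clock-shifted libraries. Mrpl22, of the wall of the exit tunnel, had 30.9, 27.6, 28.4, 27.7 and 26.7 CPM in fasted PLIN5 ASO livers, against 33.7, 33.4, 32.7 and 33.4 CPM in fasted control ASO livers. The groups did not overlap, but the change did not pass (log2 fold change -0.24, SE 0.08, adjusted p = 0.143). Mrpl14 (-0.29, adjusted p = 0.179) and Mrpl9 (-0.17, adjusted p = 0.26) followed; Mrpl14 stood at 43.2, 48.4, 34.9, 44.2 and 35.9 CPM in fasted PLIN5 ASO livers, with both clock-shifted libraries lowest. In the same comparison 2 of 13 Kupffer cell and macrophage markers and 3 of 10 stellate cell and fibroblast markers were called higher, and their part in the members' values was not tested.

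The interaction, the effect of PLIN5 ASO in re-fed liver minus that in fasted liver, gave 0 calls among the members and 0.0226% over all genes. At an unadjusted p under 0.05 there were 23 of 77 members, all positive. Of all 13293 genes there were 1991, of which 1012 were positive and 979 negative. Of the 744 genes with transcripts under 1000 nt, 183 were positive and 36 negative. DESeq2 and limma called 0 members. The median was 0.21, against -0.02 over all genes, and 72 of 77 estimates were positive. With the trend with transcript length taken out, the median was 0.09, 53 estimates were positive, and at an unadjusted p under 0.05 there were 16 members positive and 1 negative. Mrps36 had the largest estimate at 0.75 (SE 0.23, adjusted p = 0.197), with means of 11.1 ± 1.70 CPM in re-fed PLIN5 ASO, 7.98 ± 0.968 in re-fed control ASO, 6.71 ± 0.983 in fasted PLIN5 ASO and 8.16 ± 2.13 in fasted control ASO livers (SD, n = 5, 5, 5 and 4). Mrpl14 (0.48, adjusted p = 0.196) and Mrpl57 (0.31, adjusted p = 0.199) had the next smallest p-values. No member was therefore shown to respond to re-feeding differently under the 2 ASOs.

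Of 18 members chosen for their role or for a link to mitochondrial disease in humans, Mrpl12, Mrps16 and Mrps36 were called, as described above, and the others were not called in any comparison. Mrpl3, of the large subunit, stayed at 16.1 to 18.1 CPM in re-fed livers with PLIN5 ASO, 15.2 to 20.3 in those with control ASO, 14.9 to 19.8 in fasted PLIN5 ASO and 17.0 to 17.4 in fasted control ASO, with log2 fold changes of -0.06 to 0.05 in the 4 pairwise comparisons. Mrpl44 gave -0.07 to 0.01 and Mrps22 -0.07 to 0.16 in the same comparisons. Mrps12, the protein of the decoding centre, was at -0.17 on re-feeding under control ASO (adjusted p = 0.223) and at 0.10 with PLIN5 ASO in re-fed liver (adjusted p = 0.545). Mrpl11, of the base of the stalk, was at -0.26 (adjusted p = 0.0653) and 0.23 (adjusted p = 0.16) in these, and Mrpl23, at the mouth of the tunnel, at -0.05 (adjusted p = 0.831) and 0.37 (adjusted p = 0.111). The 3 Mrps18 paralogs, whose products take different places in the ribosome, had log2 fold changes of -0.19 (Mrps18a), -0.01 (Mrps18b) and -0.10 (Mrps18c) on re-feeding under control ASO, none of them called.

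The mean of the 77 members, each centred on its own mean over the 19 libraries, gives a single level per library in log2 units. It was 0.041, 0.239, 0.013, 0.056 and -0.003 in re-fed PLIN5 ASO 1 to 5 and -0.18, -0.05, -0.083, -0.011 and -0.16 in re-fed control ASO 1 to 5. It was 0.096, 0.045, -0.117, 0.037 and -0.077 in fasted PLIN5 ASO 1 to 5 and -0.004, 0.083, 0.087 and -0.012 in fasted control ASO 1, 3, 4 and 5. All re-fed PLIN5 ASO libraries lay above all re-fed control ASO libraries, with library 2 far above the rest, and the 2 lowest fasted values were the clock-shifted libraries. The counts of the members summed to 2770 to 3329 CPM in re-fed livers with PLIN5 ASO, 2456 to 2782 in those with control ASO, 2607 to 3035 in fasted PLIN5 ASO and 2834 to 3025 in fasted control ASO.

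**Figure D3:**
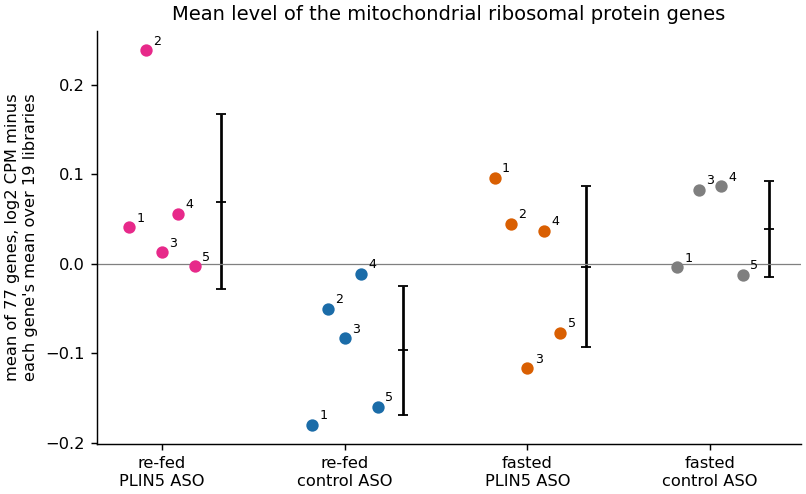
Mean of the 77 members in each library (vertical axis, log2 CPM centred per gene), by group; numbers are replicate numbers and bars give group mean and SD. Re-fed PLIN5 ASO 2 stands at 0.239, and the 5 re-fed control ASO libraries stand between -0.18 and -0.011.

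The balance of long and short transcripts differed between libraries along with the members. A long-minus-short score was taken for each library, the median log2 deviation of genes with transcripts over 5000 nt minus that of genes under 1000 nt, with the members left out. It was -0.428 to 0.019 in re-fed livers with PLIN5 ASO, 0.091 to 0.312 in those with control ASO, -0.126 to 0.041 in fasted PLIN5 ASO and -0.117 to -0.007 in fasted control ASO. The library with the highest mean of the members, re-fed PLIN5 ASO 2, had the lowest score, and the library with the lowest mean, re-fed control ASO 1, had the highest. By their longest annotated transcripts the members are short: 25 of 77 (32.5%) are under 1000 nt, against 5.81% of the genes tested. Lengths implied by the deposited counts and FPKM differ for some members. For Mrps16 the implied length is 443.6 nt against 2572 nt annotated, and for Mrpl41 it is 2450 nt against 776 nt. With PLIN5 ASO in re-fed liver the median log2 fold change was 0.17 for the members and 0.20 for all 744 genes tested under 1000 nt, and on re-feeding under control ASO it was -0.13 for the members and -0.12 for those genes.

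When the trend of each library with annotated transcript length was taken out, the median of the members was 0.05 with PLIN5 ASO in re-fed liver, -0.05 on re-feeding under control ASO, 0.07 on re-feeding under PLIN5 ASO and 0.09 for the interaction. With lengths implied by the counts and FPKM of the 2 deposited tables, it was 0.04, -0.02, 0.06 and 0.07. The medians thus lay nearer 0 under either correction. The corrections also left a trend with length among the members that was weak as counted. With PLIN5 ASO in re-fed liver, Spearman's rho between their annotated length and log2 fold change was -0.15 as counted. It was 0.49 and 0.28 under the 2 corrections. On re-feeding under control ASO it was -0.11 as counted, then -0.5 and -0.36. The corrected values of the members are therefore no clean removal of a length effect. Under both corrections Mrpl12, Mrpl14, Mrpl15, Mrpl17, Mrpl9 and Mrps9 were called lower on re-feeding under control ASO; Mrpl12 was at -0.38 (adjusted p = 0.00122) and -0.36 (adjusted p = 0.00145), and Mrpl17, with the longest annotated transcript of the set at 7300 nt, at -0.60 and -0.58. Mrpl16 and Mrps31, the second named after its values were seen, were then called higher in that comparison, so that the splits were 2 higher and 7 lower, and 2 and 6. On re-feeding under PLIN5 ASO the same 4 members were called higher under both corrections and 4 lower, Mrpl9, Mrpl12, Mrpl13 and Mrpl18. What set the balance of long and short transcripts in a library was not tested.

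**Figure D4:**
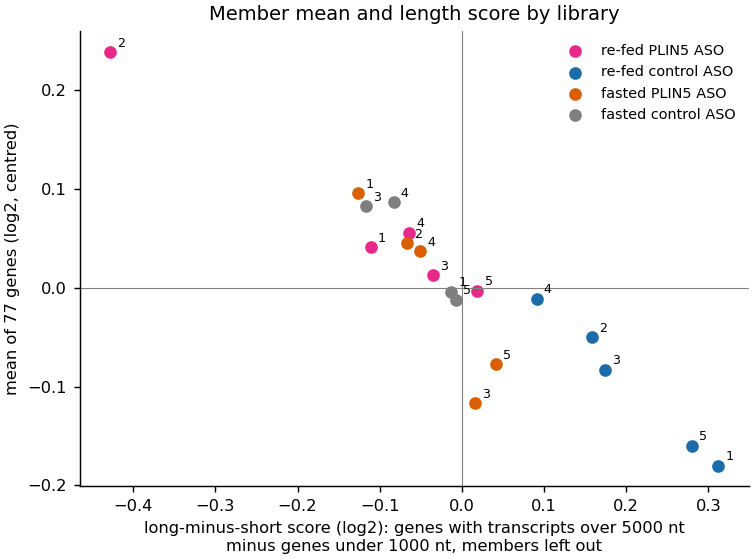
Mean of the 77 members (vertical axis, log2, centred) against the long-minus-short score of the other genes (horizontal axis, log2) in the 19 libraries, coloured by group. The mean of the members falls as the score rises, from re-fed PLIN5 ASO 2 at the upper left to re-fed control ASO 1 at the lower right.

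**Figure D5:**
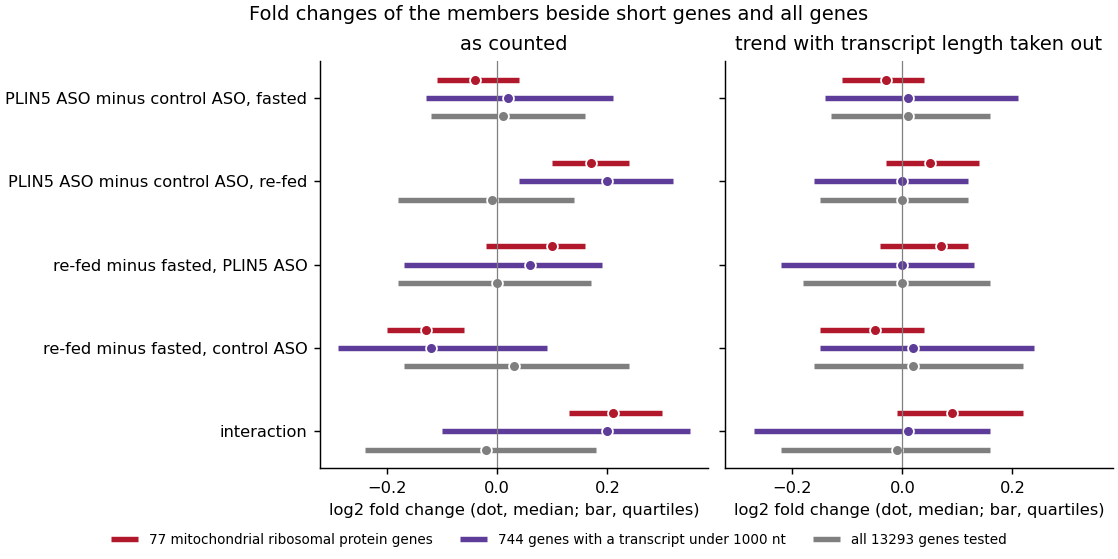
Median (dot) and quartiles (bar) of log2 fold changes in the 5 comparisons for the 77 members, the 744 genes with transcripts under 1000 nt and all 13293 genes tested, as counted (left) and with the trend with transcript length taken out (right). The medians of the members, 0.17 and -0.13 in the re-fed ASO and the control ASO re-feeding comparison, move to 0.05 and -0.05.

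Other gene groups of the same organelle were set beside the members. The 74 nuclear-coded genes of the respiratory chain and ATP synthase, whose partner subunits the mitochondrial ribosome makes, had 0 calls and a median of 0.18 with PLIN5 ASO in re-fed liver. On re-feeding under PLIN5 ASO they had 5 calls, all higher (6.76%), and a median of 0.13. Over all genes 8.64% were called there, 4.5% higher. Under control ASO the 74 genes had 5 calls, all lower (6.76%), and a median of -0.17. Over all genes 13.2% were called there, 6.82% lower. With the trend with transcript length taken out, the median of the 74 genes was -0.01 with PLIN5 ASO in re-fed liver, with 35 estimates positive and 39 negative. On re-feeding they then had 6 calls, all higher, and a median of 0.08 under PLIN5 ASO, and 2 calls higher and 2 lower and a median of -0.05 under control ASO. The 79 cytosolic ribosomal protein genes tested had 33 calls, all higher (41.8%, against 1.38% of all genes), and a median of 0.33 with PLIN5 ASO in re-fed liver, where the members had none. With the trend taken out they had 4 calls, all higher (5.06%), and a median of 0.16, and the members again had none. The difference between the 2 sets was not tested.

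Genes that serve the mitochondrial ribosome were examined in 6 lists. With PLIN5 ASO in fasted liver, 0 of their genes were called, and in re-fed liver only Slirp, which stabilizes mitochondrial messenger RNAs together with Lrpprc, was higher (log2 fold change 0.49, adjusted p = 0.0211), and it did not pass without re-fed PLIN5 ASO 2 or re-fed control ASO 5, or without the clock-shifted libraries. On re-feeding under control ASO the share called was 12.5% of the assembly and rRNA modification list, 5.56% of the translation factors, 5.88% of the synthetases, 21.4% of the 14 genes of mitochondrial DNA maintenance and transcription, 7.69% of the regulators and 0 of 6 ribosomal proteins under other names, against 13.2% of all genes. Tfam, which packages and transcribes mitochondrial DNA, fell to 33.9 ± 2.51 CPM in re-fed control ASO livers, against 42.1 ± 0.871 CPM in fasted control ASO livers (SD, n = 5 and 4; log2 fold change -0.31, adjusted p = 0.00488). Of the 24 assembly and rRNA modification genes 3 fell there, the GTPase gene Mtg1 (-0.50, adjusted p = 0.00778), the helicase gene Ddx28 (-0.36, adjusted p = 0.0123) and Malsu1 (-0.27, adjusted p = 0.0383). Of 18 translation factors 1 fell, Oxa1l, the membrane insertase at the exit of the ribosome (-0.34, adjusted p = 0.00332). Of 17 mitochondrial aminoacyl-tRNA synthetases 1 rose, Tars2 (0.22, adjusted p = 0.0448). Pnpt1 (0.34, adjusted p = 0.0161) and Mterf1a (0.77, adjusted p = 0.0246), of mitochondrial RNA decay and transcription termination, also rose, and of the 13 regulators Esrra fell (-0.41, adjusted p = 0.0456).

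On re-feeding under PLIN5 ASO 8.64% of all genes were called. In these lists the share was 8.33% of assembly and rRNA modification, 5.56% of the translation factors and 7.69% of the regulators. It was 16.7% of the 6 ribosomal proteins under other names, 0 of 17 synthetases and 0 of 14 genes of mitochondrial DNA. The calls were Slirp (0.39, adjusted p = 0.0174), Mterf3 (0.28, adjusted p = 0.0283), Pprc1, a coactivator of mitochondrial gene expression (0.63, adjusted p = 0.0212), and Ict1, a peptide release protein built into the large subunit (0.29, adjusted p = 0.0483), all higher, and Ddx28, lower (-0.31, adjusted p = 0.0254). Ddx28 was thus lower on re-feeding under both ASOs. Nrf1 itself averaged 8.49 CPM in re-fed PLIN5 ASO, 9.64 in re-fed control ASO, 8.37 in fasted PLIN5 ASO and 9.67 in fasted control ASO livers, and neither it nor Gabpa, Ppargc1a, Myc, Tufm or Polrmt was called in any comparison. Tfam, Oxa1l and Mtg1 were called on re-feeding under control ASO in all 32 alternatives, whereas Esrra was called in 13, Tars2 in 14 and Ict1 in 11.

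Within groups the members moved together from library to library. Whether other gene sets did so as closely, or the members without re-fed PLIN5 ASO 2, was not tested. After the group means were taken out, the correlation of each member with the mean of the other members over 19 libraries had a median of 0.62, and 58 of 77 were over 0.5. The highest were Mrpl51 at 0.90 and Mrpl30 at 0.89; the lowest was Mrps22 at -0.48, the only member below 0. Among 10335 other genes with a mean of at least 2 CPM, those most like the mean of the members were Arf5 at 0.94, Txn2 at 0.93, and Epn1, Aurkaip1 and Mvb12a at 0.92. Txn2 encodes mitochondrial thioredoxin and Aurkaip1 a protein of the small subunit of the mitochondrial ribosome. Arf5, Epn1 and Mvb12a are in none of the mitochondrial lists above. The most opposed genes were Vps13c at -0.92, Lyz2 at -0.91 and Sik2 at -0.87, with transcripts of 11527, 1316 and 5369 nt. The points share libraries, and with them depth and the length trend above. Exons of 32 members overlap those of another annotated gene, Mrpl12, Mrpl14, Mrpl43, Mrpl9 and Mrps26 among the called ones on the opposite strand, and since the strand setting of the counting is not given, reads of such partners cannot be told apart.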

How the data were processed

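Liver RNA of 19 libraries in 4 groups was measured. The authors deposited whole-number read counts per gene symbol and a table of FPKM per gene symbol. Per the submitters' processing notes, the tools were HISAT2 2.0.2, Subread, Cuffdiff 2.2.1, edgeR and FastQC, in no stated role, and the builds mm10 and GRCm38. Annotation, strand setting and treatment of multi-mapping reads: not given in the sources used here.

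Counts were tested in R 4.3.3 with edgeR 4.0.16: TMM, filterByExpr by group (minimum count 10), 1 fit of 19 libraries with a mean per group, two-sided quasi-likelihood F test, Benjamini-Hochberg adjustment over 13293 genes, threshold 0.05. "Called" means past it. The fit was tested on simulated data. Standard errors were computed from the fold change and F. Levels of a gene are TMM-scaled CPM, with the SD between libraries; FPKM served for levels between genes. Lengths are the longest GENCODE transcripts, known for 96.3% of genes tested; promoters are RefSeq's.

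The members, lists and tests were chosen with earlier results of these data known. Members named are, per comparison, the 5 largest changes called per direction and the 3 smallest p-values, members of set roles, and the 3 highest and lowest by FPKM. Alternatives were RLE factors, no or a stricter filter (1 CPM in 4 libraries), DESeq2 1.42.0, only the groups compared, a replicate block, no clock-shifted libraries, fasted control ASO 3 and 4 as 1 sample, each library left out, offsets for transcript length in 25 bins, and limma 3.58.1 on the authors' FPKM, log2 after adding 1 or 0.1 (mean of at least 0.5, or no filter). Offsets by the lengths that counts and FPKM imply were chosen after seeing the data.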

Additional observations from a re-analysis of the deposited data

Results flagged for a closer look

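Single libraries stood far from the rest of their group in 5 of 116 checks of 28 members and of the mean of the members over 4 groups, where chance flags about 1 in 20. Of these, 4 were in re-fed PLIN5 ASO 2, the library with the lowest long-minus-short score. Mrpl30 had 70.1 CPM there (48.1 to 53.3 in the other 4 libraries), Mrpl4 58.1 CPM (38.4 to 42.7) and Mrps34 70.3 CPM (51.4 to 56.4), and the mean of the members was 0.239 on the log2 scale (-0.003 to 0.056). Mrpl44 had 24.0 CPM in re-fed control ASO 2, against 19.8 to 20.7 CPM in the others. Without re-fed PLIN5 ASO 2 the median log2 fold change of the members with PLIN5 ASO in re-fed liver was 0.11 in place of 0.17.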

How the results depend on the processing

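In fasted liver, PLIN5 ASO against control ASO gave 0 calls in all alternatives except the replicate block, with 1. In re-fed liver it gave 0, but 1 with the stricter filter, 4 with the replicate block, 6 with DESeq2 and 0 to 2 with single libraries left out; the median moved to 0.05 and 0.04 with the 2 length corrections, as did that of re-feeding under control ASO to -0.02 (implied lengths) and that of the interaction to 0.09 and 0.07. Calls on re-feeding under control ASO ran from 6 to 12 with single libraries left out and were 7 with fasted control ASO 3 and 4 as 1 sample. On re-feeding under PLIN5 ASO the 4 calls, all higher, became 0 higher and 3 lower without the clock-shifted libraries. There were 7 (4 higher, 3 lower) with the stricter filter, 2 (both higher) in a fit of only the groups compared, 8 (4 higher, 4 lower) with each length correction and with DESeq2, 7 (4 higher, 3 lower) with limma on log2(FPKM + 1) and on log2(FPKM + 0.1), and 2 to 5 with single libraries left out. The interaction cannot be fitted with only the groups of a pair. Correlations of same-numbered libraries of different groups ran from -0.212 to 0.375, with 10 of 27 over 0.1. Differently numbered libraries were not set beside them, so these values cannot tell whether replicate numbers pair the samples. With the replicate block, re-feeding gave 15 calls under control ASO and 6 under PLIN5 ASO. Over single genes, 1101 values stayed on their side of the threshold, 166 were lost and 10 gained; the cause was not tested. What depth limits was not tested; the lowest total of a member was 4999 counts over the 19 libraries.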
